A study of Bos taurus with 138 samples.

Results

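Fluid fills the blastocoel of the bovine blastocyst when sodium is pumped across the outer epithelium and water follows. The mRNAs examined here belong to 6 genes of that process among the 16706 gene symbols of the deposited table. They were taken by name, with earlier results of these data known, so counts of them beside the shares of all genes do not test the set. ATP1B1 and ATP1B3 are beta subunits of the sodium pump, AQP3 and AQP11 are aquaporins, CFTR is a chloride channel, and SLC9A3R1 (NHERF1 in RefSeq) is a scaffold protein. The latter pair are thus neither pumps nor aquaporins. All 6 passed the filter on low counts and were tested.

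The sodium pump, or Na+/K+-ATPase, exports sodium and imports potassium, and its catalytic alpha subunit needs a beta subunit to fold and reach the plasma membrane. In trophectoderm, the epithelium that surrounds the blastocyst, the pump is set toward the cavity, sodium accumulates there, and water follows through aquaporins while tight junctions seal the cell contacts. AQP3 passes water and glycerol, AQP11 is a distant aquaporin found mainly on intracellular membranes, CFTR is opened by cyclic AMP signalling, and SLC9A3R1 ties CFTR and the sodium-proton exchanger SLC9A3 to ezrin and the actin cortex beneath apical membranes.

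Bovine GV oocytes, MII oocytes, 2-cell embryos, 8-cell embryos, morulae and blastocysts were sampled. GV oocytes were taken from slaughterhouse ovaries, MII oocytes were matured in vitro, and the embryos came from fertilization in vitro with Holstein semen. No genotype and no treatment is given for any group apart from cycloheximide, which holds ribosomes on mRNA and was given to all before collection, and ages of the donor animals are not given in the sources used here. At each stage, lysates of pooled oocytes or embryos without cumulus cells or zona were spread over sucrose gradients A and B, which gave 10 fractions each, and whole pooled oocytes or embryos of the same batches gave transcriptomes A, B and C. The sources differ on how many oocytes or embryos entered a gradient. Fractions F1 and F2 hold free RNA, F3 to F5 monosomes and F8 to F10 polysomes, so F8, F9 and F10 of a gradient were summed to a polysome pool, which left n = 2 polysome pools and n = 3 transcriptomes per stage. Each value comes from a pool of whole embryos, so fewer cells of a type and less RNA per cell cannot be told apart.

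Expected counts per library ran from 1229382 to 17342859 in the 120 fractions, from 22543733 to 39380641 in the 12 polysome pools and from 3269386 to 11812542 in the 18 transcriptomes. The stage labels were set beside marker genes, summed as counts scaled to the library total (CPM). The 7 oocyte markers summed to between 13139 and 14744 CPM in GV transcriptomes and to between 35.2 and 130 CPM in blastocysts. The 10 trophectoderm markers summed to between 168 and 180 CPM in GV transcriptomes and to between 5759 and 7439 CPM in blastocysts, and the 6 inner cell mass markers in the table to between 233 and 330 CPM in blastocysts, below the 494 to 603 CPM of morulae and the 338 to 374 CPM of 8-cell embryos. Cumulus and granulosa cell markers, 13 genes of cells removed before collection, were highest in 8-cell transcriptome A, at 1362 CPM against 311 CPM in the lowest library of that group, and most of it was VCAN at 883 CPM. The polysome pools of the 8-cell stage held between 128 and 155 CPM of these markers. Other stages were not free of them. Transcriptomes held between 593 and 732 CPM in GV oocytes, 647 and 851 CPM in MII oocytes and 311 and 932 CPM in blastocysts. Polysome pools held between 951 and 980 CPM in GV oocytes and 796 and 1097 CPM in 2-cell embryos. PTGS2 is in this list and among the trophectoderm markers. 8-cell transcriptome A therefore stands apart within its stage, and the calls of the 6 genes that were lost without it are given with and without it.

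Levels below are CPM scaled by edgeR's trimmed mean of M-values (TMM) over the 30 pools and transcriptomes. They are relative to all mRNA of a library, not per length and not per embryo, so they compare libraries for 1 gene and not genes with each other. A difference is the log2 ratio fitted by edgeR's quasi-likelihood test across 14612 genes, given with its standard error (SE), and a gene is called higher or lower where the two-sided p, adjusted by Benjamini-Hochberg over these genes, is below 0.05. A change between consecutive stages also had to exceed a fold change of 2. Replicates were separate pools, and no pair of libraries of a group held identical values.

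**Figure D1:**
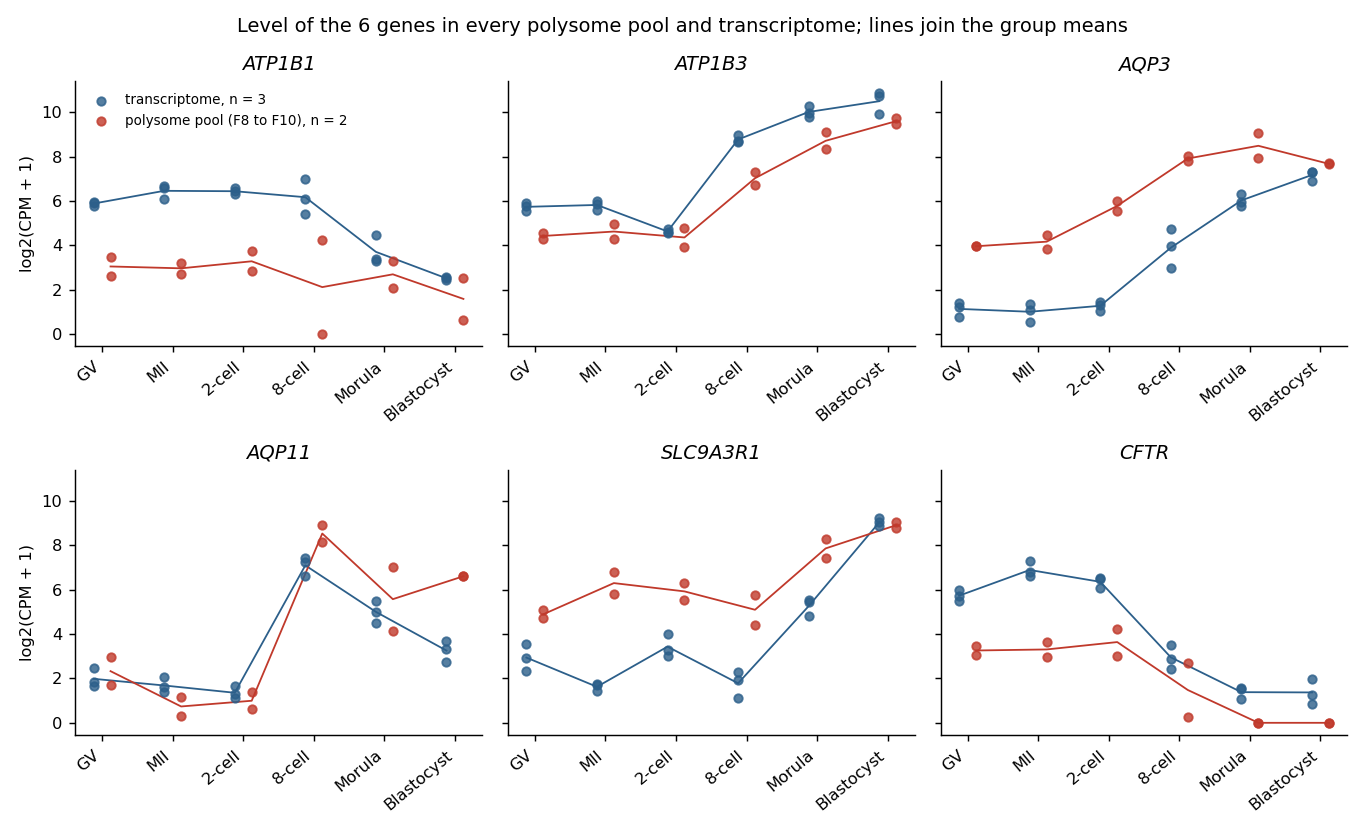
Level of each of the 6 genes (y axis, log2(CPM + 1)) at the 6 stages, with red points for the 2 polysome pools and blue points for the 3 transcriptomes of a stage, and lines through the group means. AQP3 and SLC9A3R1 lie higher in polysome pools than in transcriptomes from GV oocytes to morulae, ATP1B1 and CFTR lie lower up to the 2-cell stage, and ATP1B3 is higher in both from the 8-cell stage on than before.

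The first comparison asked whether the mRNA of each gene formed a larger or smaller share of polysomal mRNA than of the whole transcriptome of its stage. The 6 genes did not move as a group. AQP3 and SLC9A3R1 were higher in polysome pools at 5 of 6 stages each, ATP1B3 and CFTR were lower at 5 of 6 stages each, ATP1B1 was lower at 4, and AQP11 was higher at 1. In GV oocytes 2 genes were higher and 3 lower in polysomes, where 22.1% of all genes tested were called higher and 17.6% lower. In MII oocytes it was again 2 higher and 3 lower, against 30.7% and 26.7% of all genes. The 2-cell stage had 2 higher and 2 lower, against 29.0% and 21.9%, the 8-cell stage 2 and 2, against 27.9% and 31.0%, and morulae 2 and 2, against 26.4% and 25.1%. In blastocysts 1 gene was higher and 2 were lower, against 19.9% of all genes in each direction. The median log2 difference over the 6 genes lay between -1.41 at MII and 0.06 at the 8-cell stage, where the median over all genes was 0.00 and -0.26.

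**Figure D2:**
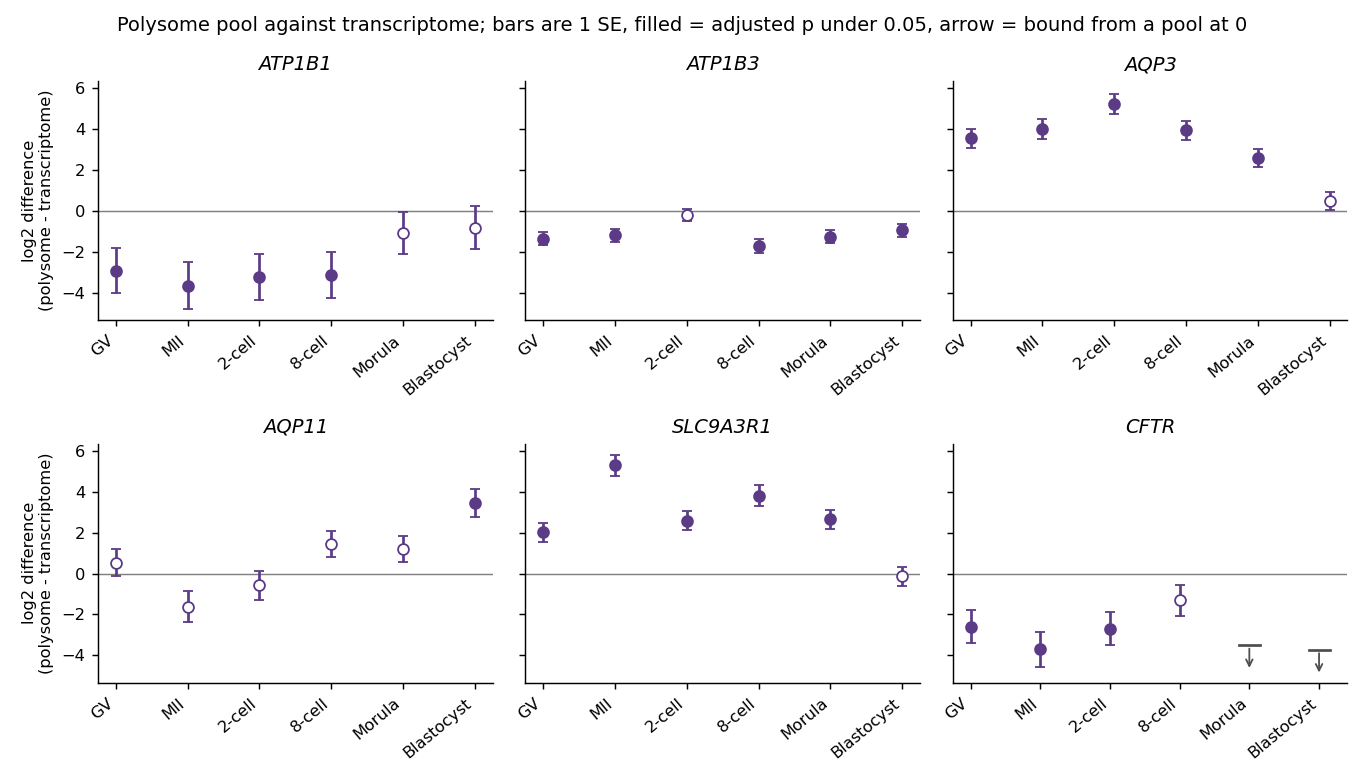
Log2 difference between polysome pools and transcriptomes (y axis) at each stage (x axis) for each gene, with bars of 1 SE from the edgeR fit, filled points where the difference was called and open points where it was not. For CFTR in morulae and blastocysts, whose polysome pools held no count, an arrow from the bound is drawn in place of a fitted value. AQP3 stands above 0 at every stage and SLC9A3R1 at every stage but the blastocyst, where the values are 0.49 and -0.13 and neither was called.

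ATP1B1, a beta subunit of the sodium pump, was abundant in oocytes and early embryos and scarce in blastocysts. Its transcriptome level was 61.6, 59.5 and 53.9 CPM in GV oocytes, 68.1, 94.6 and 103 CPM in MII oocytes, and 94.4, 78.3 and 86.5 CPM in 2-cell embryos (replicates A, B and C). It was 128, 41.6 and 67.7 CPM at the 8-cell stage, 9.52, 20.9 and 8.73 CPM in morulae and 4.41, 4.77 and 5.0 CPM in blastocysts. The polysome pools A and B held 10.1 and 5.19 CPM in GV oocytes, 5.58 and 8.30 CPM in MII oocytes, 6.09 and 12.4 CPM in 2-cell embryos, 0 and 17.9 CPM in 8-cell embryos, 3.23 and 8.94 CPM in morulae, and 0.566 and 4.77 CPM in blastocysts. All polysome pools lay below all transcriptomes up to the 8-cell stage, and the groups overlapped in morulae and blastocysts.

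ATP1B1 mRNA was 7.63-fold lower in polysomes of GV oocytes (log2 difference -2.93 ± 1.11 SE, edgeR adjusted p = 0.0385) and 12.7-fold lower in those of MII oocytes (-3.67 ± 1.15 SE, edgeR adjusted p = 0.00925). It was 9.33-fold lower at the 2-cell stage (-3.22 ± 1.13 SE, edgeR adjusted p = 0.0201) and 8.81-fold lower at the 8-cell stage (-3.14 ± 1.12 SE, edgeR adjusted p = 0.0198). In morulae and blastocysts the log2 differences were -1.10 and -0.83 (edgeR adjusted p = 0.378 and 0.559). Each of the 4 calls was lost in at least 1 fit that left out 1 library. The GV call was lost without any 1 of its 5 libraries (adjusted p up to 0.219), the MII call without polysome pool A (-3.47, adjusted p = 0.0762) and the 2-cell call without either pool (-2.81 without A, adjusted p = 0.141, and -3.83 without B, adjusted p = 0.0617). At the 8-cell stage, pool A held no count of the gene, without that pool the difference was -2.14 (adjusted p = 0.0354), and against it alone no fold is given. Transcriptome A, the library highest in the cumulus markers, also held the most ATP1B1, and without it the 8-cell difference was -2.61 (adjusted p = 0.0597). The part of these markers in the result was not tested. Of the other calls of the 6 genes, 1 was lost without this library, the fall of CFTR from 8-cell to morula transcriptomes described below.

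Along development no change of ATP1B1 between consecutive stages was called by edgeR's quasi-likelihood test, in either transcriptomes or polysome pools. The largest was the fall of the transcriptome mean from 79.1 CPM at the 8-cell stage to 13.1 CPM in morulae, with groups that did not overlap, a log2 difference of -2.60 ± 0.93 SE and an edgeR adjusted p of 0.0609. It was called in 6 of 30 fits that left out 1 library (adjusted p from 0.00158), each without a polysome pool of the 8-cell, morula or blastocyst stage. It was also called by DESeq2 (-2.71, adjusted p = 0.0127), by edgeR's likelihood ratio test (adjusted p = 0.0259) and with RLE factors (adjusted p = 0.0471). In the order of transcriptome means the stages ran from MII (88.4 CPM) over 2-cell, 8-cell, GV and morula to blastocyst (4.73 CPM), and edgeR called no neighbours in this order different. The CPM ranges did not overlap between GV and morula (edgeR adjusted p = 0.052) or between morula and blastocyst (edgeR adjusted p = 0.279). The polysome means ran between 2.67 CPM in blastocysts and 9.26 CPM in 2-cell embryos, again with no neighbours called different by edgeR.

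ATP1B3, the other beta subunit measured, was lower in oocytes and 2-cell embryos than from the 8-cell stage on. Its transcriptome level was 58.4, 45.4 and 54.5 CPM in GV oocytes, 56.9, 64.0 and 47.5 CPM in MII oocytes, and 23.6, 22.4 and 25.4 CPM in 2-cell embryos. It then stood at 404, 414 and 503 CPM at the 8-cell stage, 1007, 1251 and 888 CPM in morulae, and 970, 1873 and 1689 CPM in blastocysts. In the polysome pools it was 22.5 and 18.7 CPM in GV oocytes, 18.5 and 30.3 CPM in MII oocytes, 26.9 and 14.1 CPM in 2-cell embryos, 106 and 159 CPM in 8-cell embryos, 322 and 549 CPM in morulae, and 716 and 846 CPM in blastocysts. The 2-cell stage was the low point of the transcriptomes, and both kinds of library were highest in blastocysts.

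The first rise of ATP1B3 came at the 8-cell stage, when the bovine embryonic genome becomes active. From the 2-cell to the 8-cell stage the transcriptome mean rose 18.5-fold, from 23.8 to 440 CPM (log2 difference 4.21 ± 0.32 SE, edgeR adjusted p = 2.58e-10), and the polysome mean rose 6.46-fold, from 20.5 to 132 CPM (2.69 ± 0.36 SE, edgeR adjusted p = 2.80e-06). The polysome rise was the smaller by 1.52 on the log2 scale (-1.52 ± 0.44 SE, edgeR adjusted p = 0.0265), a call lost in 5 of the 30 fits that left out 1 library (adjusted p up to 0.228, without 2-cell polysome pool A). From the 8-cell stage to morulae it rose a further 2.38-fold in transcriptomes (edgeR adjusted p = 0.00343) and 3.29-fold in polysome pools (edgeR adjusted p = 6.21e-04). Before that, from MII to 2-cell, it had fallen 2.36-fold in transcriptomes (-1.24 ± 0.28 SE, edgeR adjusted p = 0.00409). In the order of levels, the neighbours not called different were blastocysts and morulae as well as MII and GV oocytes in transcriptomes, and in polysome pools those between blastocysts and morulae or among MII, GV and 2-cell.

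Polysome pools held less ATP1B3 than the transcriptome at all stages but the 2-cell stage. It was 2.57-fold lower in GV oocytes (-1.36 ± 0.33 SE, edgeR adjusted p = 0.0018), 2.30-fold lower in MII oocytes (-1.20 ± 0.32 SE, edgeR adjusted p = 0.00299), 3.33-fold lower in 8-cell embryos (-1.73 ± 0.33 SE, edgeR adjusted p = 1.13e-04), 2.41-fold lower in morulae (-1.27 ± 0.32 SE, edgeR adjusted p = 0.00234) and 1.93-fold lower in blastocysts (-0.95 ± 0.32 SE, edgeR adjusted p = 0.0204). At the 2-cell stage the difference was -0.21 ± 0.31 SE with overlapping groups (edgeR adjusted p = 0.594). The MII call was lost without polysome pool A (-0.95, adjusted p = 0.0595), and the blastocyst call in 4 of 30 fits that left out 1 library (adjusted p up to 0.126, without polysome pool A). The GV, 8-cell and morula calls held without any 1 library. All these calls compare polysomes with the transcriptome and not with lighter fractions. At the 8-cell stage the monosome fractions held less ATP1B3 (means of 29.4 and 39.4 CPM) than the polysome fractions (115 and 170 CPM). The monosome means were also the lower in morulae and blastocysts, but the higher in MII oocytes and 2-cell embryos. From the 8-cell stage on, no trend of ATP1B3 over F3 to F10 was called.

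AQP3, the aquaporin that passes water and glycerol, stood below 2 CPM in transcriptomes of oocytes and 2-cell embryos and above 10 CPM in their polysome pools. Its transcriptome level was 1.67, 0.718 and 1.32 CPM in GV oocytes, 1.60, 1.12 and 0.476 CPM in MII oocytes, and 1.07, 1.52 and 1.73 CPM in 2-cell embryos. It reached 6.94, 14.7 and 25.6 CPM at the 8-cell stage, 62.0, 79.6 and 54.2 CPM in morulae, and 158, 118 and 160 CPM in blastocysts. The polysome pools held 14.6 and 14.6 CPM in GV oocytes, 21.5 and 13.4 CPM in MII oocytes, 46.0 and 63.5 CPM in 2-cell embryos, 223 and 261 CPM in 8-cell embryos, 244 and 530 CPM in morulae, and 207 and 201 CPM in blastocysts. No polysome pool overlapped the transcriptomes of its stage. The log2 difference between them was largest at the 2-cell stage (5.24) and smallest in blastocysts (0.49). Of the steps in between, a change of this difference was called only from morula to blastocyst, as given below.

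AQP3 mRNA was 11.6-fold higher in polysomes of GV oocytes (log2 difference 3.54 ± 0.48 SE, edgeR adjusted p = 2.31e-06), 16.3-fold higher in MII oocytes (4.02 ± 0.49 SE, edgeR adjusted p = 2.41e-07) and 37.9-fold higher in 2-cell embryos (5.24 ± 0.49 SE, edgeR adjusted p = 7.86e-09). It was 15.4-fold higher in 8-cell embryos (3.94 ± 0.46 SE, edgeR adjusted p = 1.44e-07) and 5.93-fold higher in morulae (2.57 ± 0.44 SE, edgeR adjusted p = 3.55e-05, and 1.89 without morula polysome pool B). In blastocysts the difference was 0.49 ± 0.43 SE (edgeR adjusted p = 0.374). All 5 calls held without any 1 library.

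AQP3 rose in transcriptomes at each step from the 2-cell stage on, and in polysome pools from MII to 2-cell and from 2-cell to 8-cell. From MII to 2-cell the polysome mean rose from 17.5 to 54.7 CPM (log2 difference 1.65 ± 0.49 SE, edgeR adjusted p = 0.0354), a call lost without any 1 of the 4 pools involved (adjusted p up to 0.268), while the transcriptome means were 1.06 and 1.44 CPM and were not called. The test of the difference between these changes was not passed either (1.22 ± 0.68 SE, edgeR adjusted p = 0.446). From 2-cell to 8-cell AQP3 rose 10.9-fold in transcriptomes (edgeR adjusted p = 1.01e-06) and 4.41-fold in polysome pools (edgeR adjusted p = 0.00122). From 8-cell to morula the transcriptomes rose 4.15-fold (edgeR adjusted p = 0.00114), and the polysome change was 0.68 ± 0.48 SE with overlapping groups (edgeR adjusted p = 0.276). From morula to blastocyst the transcriptomes rose 2.23-fold (1.15 ± 0.39 SE, edgeR adjusted p = 0.0355, lost in 5 of 30 fits that left out 1 library, adjusted p up to 0.129). Over that last step the polysome mean went from 387 to 204 CPM without a call, and the polysome change lay below the transcriptome change by 2.08 on the log2 scale (-2.08 ± 0.62 SE, edgeR adjusted p = 0.0303). That difference was lost in 7 of 30 such fits, with -1.41 and an adjusted p of 0.139 without morula polysome pool B. In order of level, the transcriptome means were called different between all neighbours from blastocyst down to 2-cell but not among 2-cell, GV and MII, and the polysome means were not called different among morula, 8-cell and blastocyst or between MII and GV.

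AQP11, the intracellular aquaporin, peaked at the 8-cell stage. Its transcriptome level was 4.56, 2.56 and 2.13 CPM in GV oocytes, 1.60, 2.03 and 3.21 CPM in MII oocytes, and 2.13, 1.2 and 1.43 CPM in 2-cell embryos. At the 8-cell stage it was 97.6, 173 and 150 CPM, in morulae 21.8, 31.0 and 44.3 CPM, and in blastocysts 12.1, 9.12 and 5.60 CPM. The polysome pools held 2.27 and 6.73 CPM in GV oocytes, 0.252 and 1.22 CPM in MII oocytes, 0.528 and 1.60 CPM in 2-cell embryos, 477 and 288 CPM in 8-cell embryos, 16.4 and 130 CPM in morulae, and 96.3 and 97.2 CPM in blastocysts. The morula pools lay far apart, with the transcriptomes between them, and the blastocyst pools lay far above the transcriptomes.

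From 2-cell to 8-cell AQP11 rose 87.9-fold in transcriptomes (log2 difference 6.46 ± 0.75 SE, edgeR adjusted p = 1.76e-07) and 358-fold in polysome pools (8.49 ± 0.99 SE, edgeR adjusted p = 3.92e-07). The size of the polysome rise depends on the low 2-cell pools, at 7.90 without pool A and 9.48 without pool B. It then fell 4.33-fold in transcriptomes from 8-cell to morula (-2.11 ± 0.60 SE, edgeR adjusted p = 0.0186) and 3.65-fold from morula to blastocyst (-1.87 ± 0.62 SE, edgeR adjusted p = 0.0305), calls lost in 3 and 4 of 30 fits that left out 1 library (adjusted p up to 0.0932 and 0.131). In polysomes it fell 5.22-fold from 8-cell to morula (-2.38 ± 0.75 SE, edgeR adjusted p = 0.0152), with -1.98 without 8-cell pool A (adjusted p = 0.067), and with -1.55 without morula pool A (adjusted p = 0.133) and -4.52 without morula pool B. From morula to blastocyst the polysome change was not called, at 0.40 ± 0.71 SE, but it was 2.57 without morula pool B (adjusted p = 0.0285). In order of level the transcriptome means ran 8-cell, morula, blastocyst, GV, MII, 2-cell, and the neighbours not called different were GV from MII and MII from 2-cell.

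In blastocysts AQP11 mRNA was 10.9-fold higher in polysomes than in the transcriptome (log2 difference 3.45 ± 0.68 SE, edgeR adjusted p = 2.99e-04), and this held without any 1 library. At the other 5 stages it was not called by edgeR's quasi-likelihood test. The nearest were the 8-cell stage, with 1.45 ± 0.64 SE, groups that did not overlap and an edgeR adjusted p of 0.0547, and MII oocytes, with -1.62 ± 0.76 SE and an edgeR adjusted p of 0.0691, and they were called in 7 and 3 of the 30 fits that left out 1 library (adjusted p from 0.0211 and 0.0177). The MII difference was called by DESeq2 (-1.86, adjusted p = 0.02), by the likelihood ratio test (adjusted p = 0.048), with RLE factors (adjusted p = 0.0407) and with F9 and F10 summed (-6.08, adjusted p = 0.00651). The 8-cell difference was called by the likelihood ratio test, with no filter, with a replicate block and with F6 to F10 summed (adjusted p between 0.0407 and 0.0475). In morulae the sign depended on the pool, with 1.98 without pool A (adjusted p = 0.0108) and -0.99 without pool B (adjusted p = 0.256).

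SLC9A3R1, the scaffold of apical channels and exchangers, was scarce in transcriptomes up to the 8-cell stage and abundant in blastocysts. Its transcriptome level was 10.9, 4.10 and 6.49 CPM in GV oocytes, 2.40, 2.23 and 1.67 CPM in MII oocytes, and 7.0, 8.71 and 15.3 CPM in 2-cell embryos. It was 2.83, 1.17 and 3.91 CPM at the 8-cell stage, 42.6, 45.7 and 26.9 CPM in morulae, and 465, 527 and 596 CPM in blastocysts. The polysome pools held 25.3 and 32.7 CPM in GV oocytes, 110 and 55.1 CPM in MII oocytes, 45.7 and 78.4 CPM in 2-cell embryos, 20.6 and 53.4 CPM in 8-cell embryos, 174 and 310 CPM in morulae, and 527 and 440 CPM in blastocysts. The polysome pools lay above all transcriptomes of their stage up to the morula, and in blastocysts the groups overlapped.

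SLC9A3R1 mRNA was 4.03-fold higher in polysomes of GV oocytes (log2 difference 2.01 ± 0.47 SE, edgeR adjusted p = 0.00142) and 39.1-fold higher in MII oocytes (5.29 ± 0.53 SE, edgeR adjusted p = 1.07e-08, and 4.65 without MII polysome pool A). It was 6.0-fold higher in 2-cell embryos (2.59 ± 0.47 SE, edgeR adjusted p = 7.21e-05), 14-fold higher in 8-cell embryos (3.81 ± 0.50 SE, edgeR adjusted p = 9.52e-07, and 2.96 without 8-cell polysome pool B) and 6.30-fold higher in morulae (2.66 ± 0.47 SE, edgeR adjusted p = 5.76e-05). In blastocysts the difference was -0.13 ± 0.47 SE (edgeR adjusted p = 0.861). The 5 calls held without any 1 library. They compare polysomes with the transcriptome and not with lighter fractions. Within the GV gradients, the monosome fractions held more SLC9A3R1 (means of 93.4 and 107 CPM) than the polysome fractions (23.9 and 29.4 CPM).

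During maturation the changes of SLC9A3R1 in transcriptomes and in polysomes differed from each other. From GV to MII it fell 3.41-fold in transcriptomes (log2 difference -1.77 ± 0.47 SE, edgeR adjusted p = 0.00901, and 0.0822 without GV transcriptome A and 0.0539 without MII transcriptome C), and in polysome pools the mean was 29.0 CPM in GV and 82.4 CPM in MII (1.51 ± 0.52 SE, edgeR adjusted p = 0.0981). The polysome change exceeded the transcriptome change by 3.28 on the log2 scale (3.28 ± 0.70 SE, edgeR adjusted p = 0.00303), which held without any 1 library, at 2.67 without MII polysome pool A. From MII to 2-cell the transcriptomes rose 4.90-fold (edgeR adjusted p = 0.00161) while the polysome mean was 62.0 CPM, and the difference between the changes was -2.70 ± 0.70 SE (edgeR adjusted p = 0.0438), a call lost in 20 of 30 fits that left out 1 library (adjusted p up to 0.187).

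Later, SLC9A3R1 fell 3.91-fold in transcriptomes from 2-cell to 8-cell (edgeR adjusted p = 0.00102). It then rose 14.5-fold from 8-cell to morula (3.86 ± 0.48 SE, edgeR adjusted p = 8.16e-06) and 13.8-fold from morula to blastocyst (3.78 ± 0.47 SE, edgeR adjusted p = 2.98e-06). In polysome pools it rose 6.54-fold from 8-cell to morula (2.71 ± 0.54 SE, edgeR adjusted p = 5.39e-04, and 3.55 without 8-cell pool B), and from morula to blastocyst the mean went from 242 to 484 CPM without a call. Over this last step the polysome change lay below the transcriptome change by 2.79 on the log2 scale (-2.79 ± 0.67 SE, edgeR adjusted p = 0.00932, and 0.0552 without blastocyst polysome pool B). In order of level, the transcriptome means were not called different between 2-cell and GV or between 8-cell and MII, and in polysome pools the only neighbours called different were morula and MII.

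CFTR, the chloride channel, was highest in oocytes and 2-cell embryos and scarce from the 8-cell stage on. Its transcriptome level was 44.3, 62.0 and 51.9 CPM in GV oocytes, 97.0, 109 and 155 CPM in MII oocytes, and 91.1, 88.9 and 65.8 CPM in 2-cell embryos. It was 4.46, 6.45 and 10.4 CPM at the 8-cell stage, 1.87, 1.97 and 1.08 CPM in morulae, and 2.94, 0.829 and 1.40 CPM in blastocysts. The polysome pools held 10.2 and 7.22 CPM in GV oocytes, 6.74 and 11.7 CPM in MII oocytes, 18 and 7.20 CPM in 2-cell embryos, 5.54 and 0.190 CPM in 8-cell embryos, and no count in morulae and blastocysts. The polysome pools lay below all transcriptomes at every stage but the 8-cell stage, where the groups overlapped.

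CFTR mRNA was 6.05-fold lower in polysomes of GV oocytes (log2 difference -2.60 ± 0.80 SE, edgeR adjusted p = 0.0131), 13.1-fold lower in MII oocytes (-3.71 ± 0.85 SE, edgeR adjusted p = 8.27e-04) and 6.49-fold lower in 2-cell embryos (-2.70 ± 0.81 SE, edgeR adjusted p = 0.00804). At the 8-cell stage the difference was -1.32 ± 0.77 SE (edgeR adjusted p = 0.143), and it was -5.17 without polysome pool A (adjusted p = 3.36e-05), since pool A held nearly all of the CFTR counts. In morulae the transcriptomes held 20, 22 and 10 counts and the polysome pools 0, which allows up to 0.145 CPM in pool A and 0.0863 CPM in pool B (3 counts of each library size after TMM scaling), so the gene was at least 11.3-fold lower in polysomes (edgeR adjusted p = 1.40e-04). In blastocysts, with 10, 4 and 7 counts in the transcriptomes and limits of 0.131 and 0.128 CPM in the pools, it was at least 13.2-fold lower (edgeR adjusted p = 3.55e-04). Such limits cover counting error only. The GV call was lost without either polysome pool (-2.87 without A, adjusted p = 0.0582, and -2.37 without B, adjusted p = 0.113) and the 2-cell call without pool B (-2.19, adjusted p = 0.0989, and -3.52 without pool A).

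CFTR fell 11.6-fold in transcriptomes from 2-cell to 8-cell (log2 difference -3.53 ± 0.72 SE, edgeR adjusted p = 3.18e-04) and 4.44-fold in polysome pools (-2.15 ± 0.83 SE, edgeR adjusted p = 0.038). The polysome fall was lost without 2-cell pool A (-1.34, adjusted p = 0.28) or 8-cell pool B (-1.19, adjusted p = 0.134), and was -6.0 without 8-cell pool A. From 8-cell to morula the transcriptomes fell 4.30-fold (-2.10 ± 0.71 SE, edgeR adjusted p = 0.0466, lost in 19 of 30 fits that left out 1 library, adjusted p up to 0.159). Without 8-cell transcriptome A, the library highest in the cumulus markers, the transcriptome change was -2.35 (adjusted p = 0.0508). The polysome pools went over that step to 0, at least 19.8-fold lower than the 8-cell mean (edgeR adjusted p = 1.43e-04). That bound rests on 8-cell pool A at 5.54 CPM, since pool B at 0.190 CPM was itself near the limit, and the fitted change, which depends on the prior count, was -4.81 without pool A and -9.59 without pool B. In order of level the transcriptome means were not called different among MII, 2-cell and GV or between morula and blastocyst, and in polysome pools the only neighbours called different were 8-cell and morula.

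**Figure D3:**
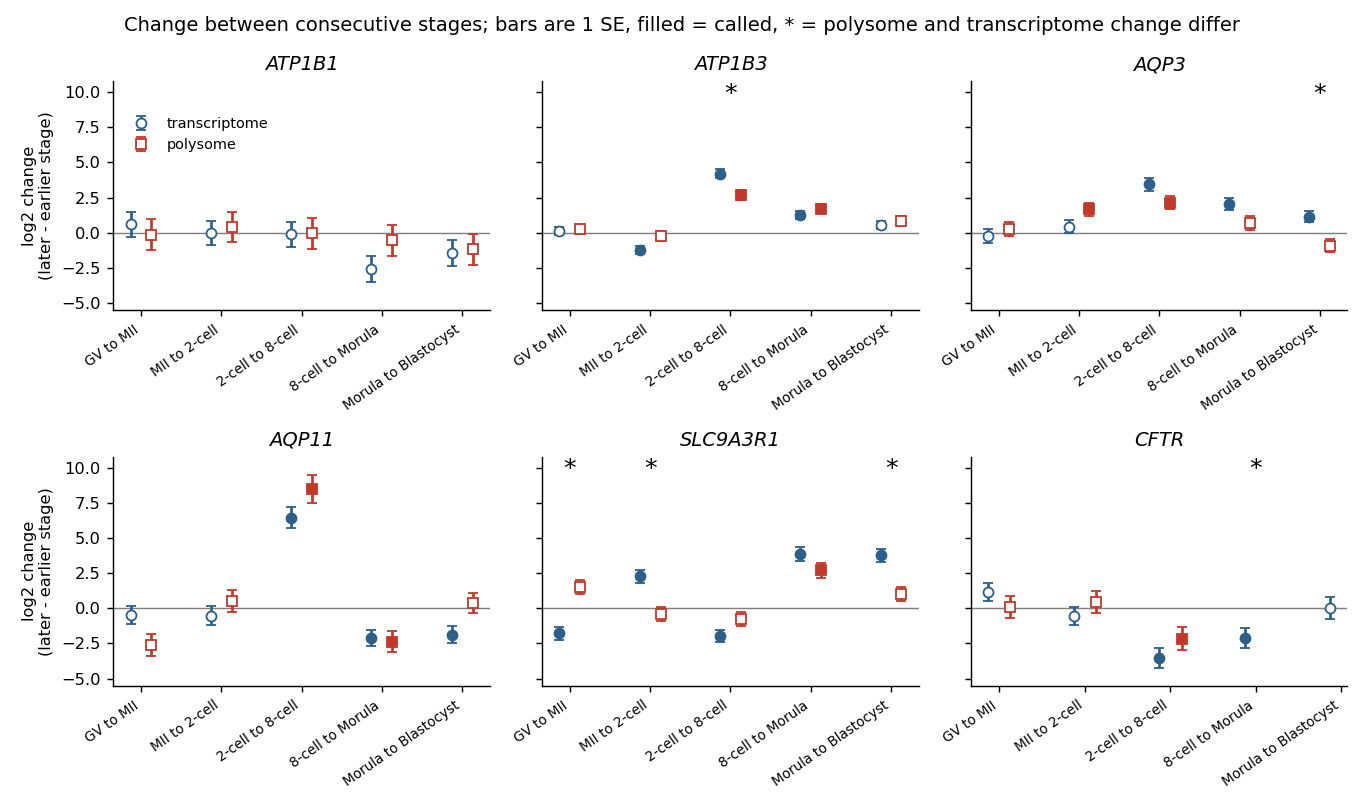
Log2 change from each stage to the next (y axis, later minus earlier) over the 5 steps (x axis) for each gene, with circles for transcriptomes, squares for polysome pools, bars of 1 SE, filled symbols where the change was called and a star where the polysome and transcriptome changes differed. CFTR polysome changes against pools at 0 are left out. At the step from 2-cell to 8-cell ATP1B3, AQP3 and AQP11 rose in both kinds of library and CFTR fell in both.

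Counted over the 5 steps, the transcriptome tests of the 6 genes were called for 1 gene at the step to MII, for 2 at the step to the 2-cell stage, for 5 at the step to the 8-cell stage, for 5 at the step to the morula and for 3 at the step to the blastocyst. The shares of all genes called were 17.0%, 11.9%, 49.9%, 14.3% and 21.6%. In polysome pools 0, 1, 4, 4 and 0 of the 6 genes were called, beside 5.34%, 8.60%, 46.1%, 36.1% and 13.8% of all genes. The counts of 0 are those of edgeR. From GV to MII, 1 higher and 1 lower polysome change had an unadjusted p under 0.05 and were called by DESeq2 (SLC9A3R1 and AQP11), and from morula to blastocyst 1 higher change had such a p (ATP1B3) and 0 were called by DESeq2. The test of the difference between polysome and transcriptome change was passed by 1 of 6 genes at each of the first 4 steps and by 2 at the last, beside 10.6%, 1.83%, 12.1%, 12.4% and 12.2% of all genes. Of the neighbours in the orders of levels given above, 14 of 30 pairs were called different in transcriptomes and 8 of 30 in polysome pools. Over all 15 pairs of stages, 40.3% and 39.2% of the tests of all genes were called. Neighbours are the stages closest in level for each gene, whereas these shares also cover distant stages, so the counts and shares cannot be compared.

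The profiles over single fractions showed that the differences of ATP1B1, AQP3, SLC9A3R1 and CFTR from the transcriptome were seen beyond F8 to F10. For these profiles CPM was scaled over all fractions and transcriptomes together. In GV oocytes all 20 fraction libraries held less ATP1B1 and less CFTR than any transcriptome, and all 20 held more SLC9A3R1. AQP3 lay above all transcriptomes in 18, 18, 19, 17, 16 and 5 of 20 fraction libraries from GV oocytes to blastocysts, and SLC9A3R1 in 20, 20, 19, 18, 20 and 4. ATP1B1 lay below all transcriptomes in 20 of 20 up to the 8-cell stage and in 17 of 20 in morulae and in blastocysts. CFTR was at 0 in 13 of 20 fraction libraries at the 8-cell stage, in 17 in morulae and in 19 in blastocysts. Transcriptomes were not passed through a gradient, so a difference of polysomes and a difference of gradient libraries as a whole cannot be told apart in the comparison with transcriptomes.

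Summing all 10 fractions of a gradient, a comparison added after the data were seen, gave log2 differences from the transcriptome close to those of the polysome pools for several genes. That sum holds F8 to F10 itself, so part of the closeness is built in. AQP3 differed by 3.21, 3.78, 5.19, 3.36, 2.16 and 0.06 from GV oocytes to blastocysts, and it was called higher up to the morula. SLC9A3R1 differed by 3.44, 6.16, 2.81, 4.40, 2.79 and 0.08, again called higher up to the morula. ATP1B1 differed by -2.75, -2.64, -2.53, -3.79, -1.53 and -0.46, and it was called lower at every stage but the blastocyst. CFTR was called lower at all 6 stages, with log2 differences from -4.22 to -2.09. ATP1B3 was called lower in GV oocytes and from the 8-cell stage on, but the difference was -0.12 in MII oocytes (edgeR adjusted p = 0.665) and 0.60 at the 2-cell stage, where it was called higher (edgeR adjusted p = 0.0311). AQP11 was called higher in morulae (1.01, edgeR adjusted p = 0.0394) and blastocysts (3.22, edgeR adjusted p = 2.22e-06). Of all genes, 57.9%, 67.3%, 60.7%, 71.6%, 62.2% and 49.0% were called in either direction from GV oocytes to blastocysts. The monosome fractions F3 to F5 were summed without F8 to F10, also added after the data were seen. From GV oocytes to blastocysts SLC9A3R1 differed there by 4.24, 6.13, 2.76, 4.78, 2.46 and 0.21. AQP3 differed by 3.15, 3.31, 5.41, 3.25, 1.78 and -1.12, and both genes were called higher up to the morula. Other genes departed from the polysome pools. ATP1B3 differed by 0.46 in MII oocytes and by 1.15 at the 2-cell stage, where it was called higher (edgeR adjusted p = 0.00162). ATP1B1 was called lower only in 8-cell embryos and morulae, and CFTR only up to the 8-cell stage. AQP11 differed by -0.66 at the 8-cell stage, without a call.

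**Figure D4:**
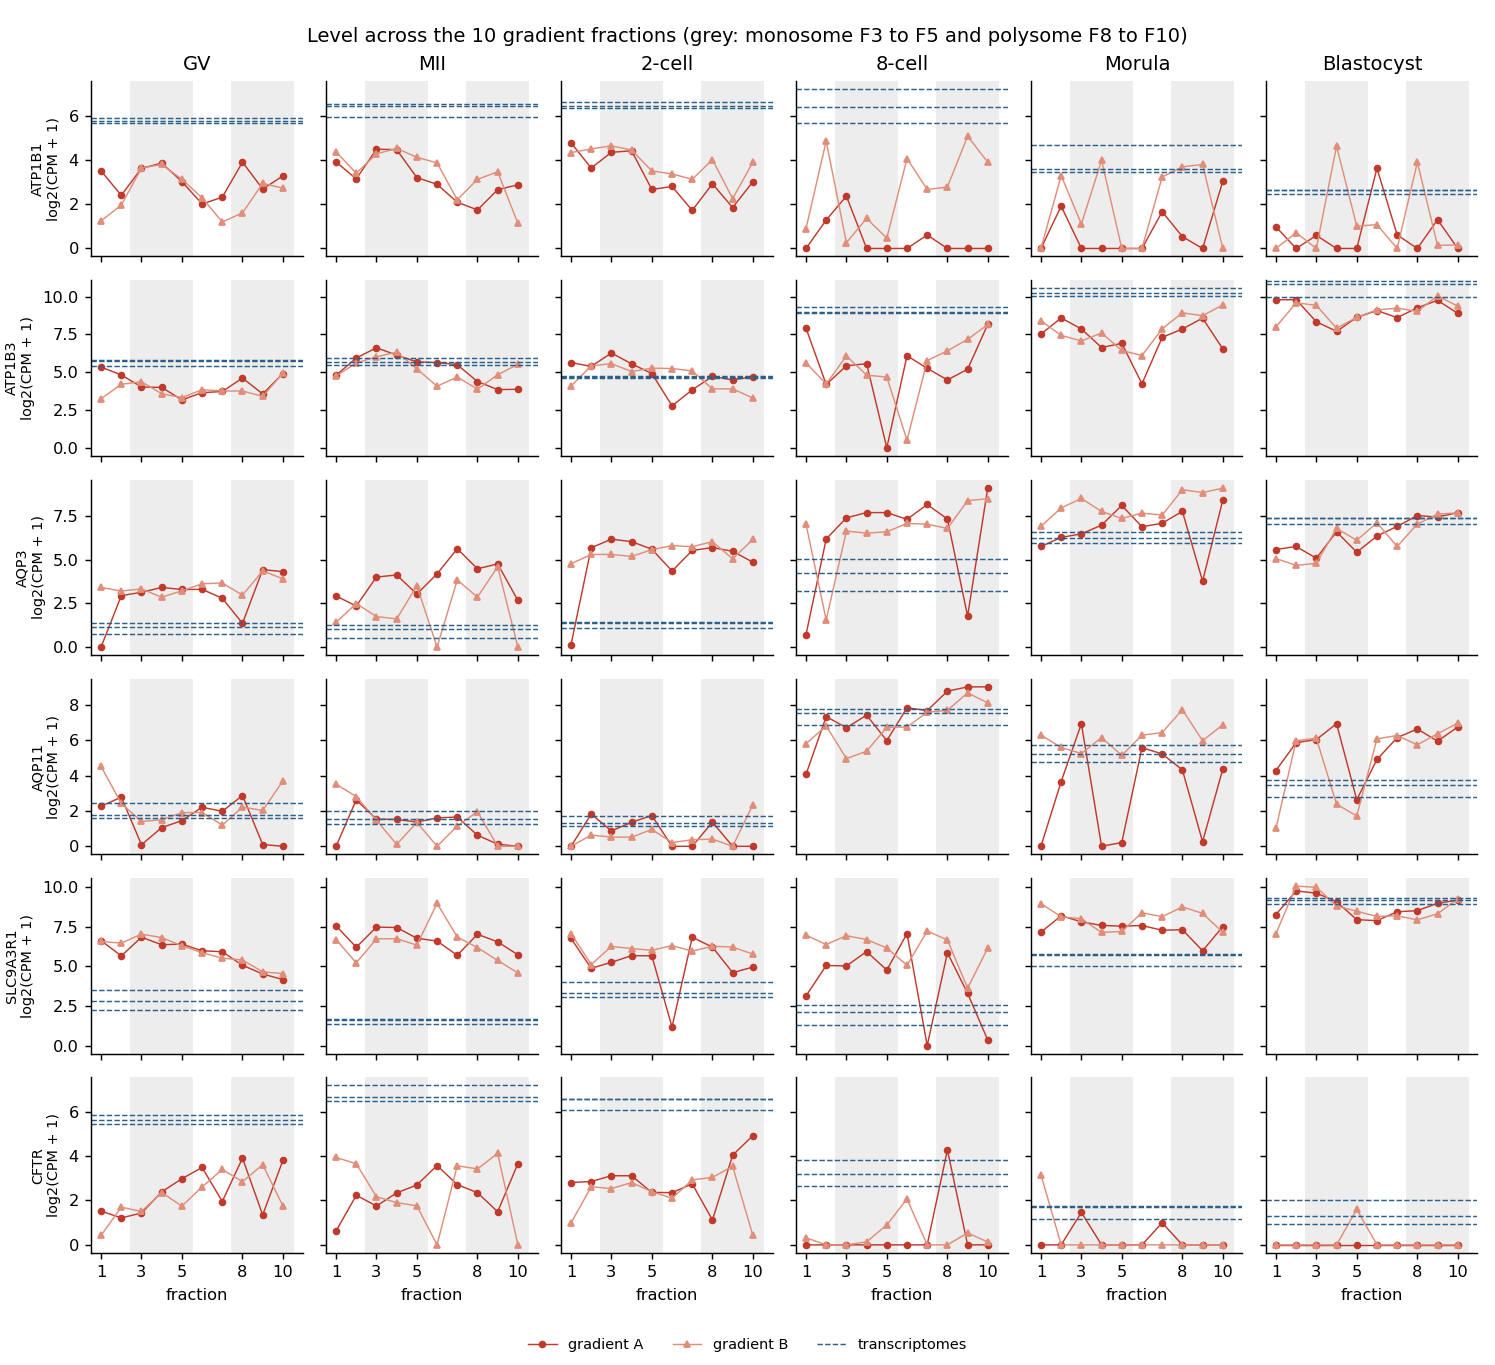
Level (y axis, log2(CPM + 1)) in each of the fractions F1 to F10 of gradients A and B (lines), for each gene (rows) and stage (columns), with the 3 transcriptomes as dashed lines and the monosome and polysome fractions shaded grey. SLC9A3R1 falls from F3 to F10 in GV oocytes, and AQP11 at the 8-cell stage and AQP3 in blastocysts rise toward F10.

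The trend from F3 to F10 compares light with heavy fractions inside the gradients and does not use the transcriptomes. It was measured as Spearman's rho between level and fraction number over 16 libraries with a permutation p adjusted over all genes, and fractions of 1 gradient come from the same lysate. Of the 6 genes, 1 had a trend at the GV stage, 2 at MII, 1 at the 2-cell, 1 at the 8-cell, 0 at the morula and 1 at the blastocyst stage, beside 36.7%, 19.7%, 20.7%, 15.1%, 1.60% and 7.90% of all genes tested. In morulae 0 of the genes had an unadjusted permutation p under 0.05 and 0 were called by an edgeR slope on fraction number. AQP11 at the 2-cell stage and CFTR in morulae and blastocysts were too low to be tested.

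Falling trends, toward the light fractions, were those of SLC9A3R1, ATP1B1 and ATP1B3 in oocytes and 2-cell embryos. SLC9A3R1 in GV oocytes had means of 93.4 and 107 CPM over the monosome fractions of gradients A and B and of 23.9 and 29.4 CPM over the polysome fractions (rho = -0.976, permutation p = 1.00e-05, the smallest that the permutations can give, adjusted permutation p = 2.31e-04), and the trend held in each gradient alone. ATP1B1 in MII oocytes had monosome means of 17.2 and 19.3 CPM and polysome means of 4.72 and 6.4 CPM (rho = -0.787, adjusted permutation p = 0.00624). ATP1B3 in MII oocytes had monosome means of 72.1 and 59.6 CPM and polysome means of 15.6 and 28.6 CPM (rho = -0.769, adjusted permutation p = 0.00946). At the 2-cell stage ATP1B3 had monosome means of 50.3 and 38.5 CPM and polysome means of 24.0 and 12.2 CPM (rho = -0.734, adjusted permutation p = 0.016).

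Rising trends were those of the aquaporins. AQP11 at the 8-cell stage had monosome means of 112 and 58.9 CPM and polysome means of 494 and 299 CPM (rho = 0.899, adjusted permutation p = 0.00182). AQP3 in blastocysts had monosome means of 57.7 and 69.0 CPM and polysome means of 190 and 179 CPM (rho = 0.864, adjusted permutation p = 0.00474), although the difference of its polysome pools from the transcriptome was not called. In gradients taken singly, with 8 libraries each, rho kept its sign in all 6 cases, and the call was kept in both for SLC9A3R1. For AQP11 it was kept in gradient B alone (rho = 0.976) and lost in gradient A alone (rho = 0.905, adjusted permutation p = 0.148). It was lost in both gradients for ATP1B1 in MII oocytes (adjusted permutation p = 0.143 and 0.145), ATP1B3 in 2-cell embryos (0.0918 and 0.435) and AQP3 in blastocysts (0.313 and 0.147), and in gradient B alone for ATP1B3 in MII oocytes (rho = -0.452, adjusted permutation p = 0.612).

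Other genes of the pump, of water and ion transport and of the tight junction seal were counted from lists by known role. Of 10 other sodium pump genes tested (alpha and beta subunits and the FXYD proteins that tune the pump), 2 were higher and 0 lower in blastocyst polysomes, and 1 rose and 0 fell in transcriptomes from morula to blastocyst. Of all genes, 19.9% were higher and 19.9% lower in blastocyst polysomes, and 21.6% changed in transcriptomes over that step. In the direction with no call, 1 was lower at an unadjusted p under 0.05 and 1 by DESeq2 in the polysome comparison, and 0 in the transcriptomes. The median log2 values over these genes were 1.23 and 0.74, beside -0.08 and 0.00 over all genes. Of 5 other aquaporins, 0 were higher and 1 lower in blastocyst polysomes, and no change was called by edgeR from morula to blastocyst, where 1 fell at an unadjusted p under 0.05 and 1 by DESeq2. Of 26 ion exchangers, channels and their scaffolds and kinases, 2 were higher and 5 lower in blastocyst polysomes, and 5 rose and 3 fell from morula to blastocyst. Of 12 tight junction genes, 4 were higher and 3 lower in blastocyst polysomes, and 3 rose and 0 fell from morula to blastocyst, with 0 falling at an unadjusted p under 0.05 or by DESeq2. The median log2 values for blastocyst polysomes and for that step were -1.96 and 1.49 over the other aquaporins. They were -0.72 and 0.62 over the ion transport genes and 0.21 and 1.12 over the tight junction genes.

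These small counts moved with single libraries. Of the sodium pump genes, 1 instead of 2 was higher without either blastocyst polysome pool or without blastocyst transcriptome A or C, 1 instead of 0 was lower without a polysome pool of the 8-cell or morula stage, and 0 instead of 1 rose without morula transcriptome A or C. Of the aquaporins, 2 instead of 0 were higher without blastocyst polysome pool A and 0 instead of 1 was lower without blastocyst transcriptome B, and 1 instead of 0 fell without a polysome pool of the MII or blastocyst stage. Of the ion transport genes, 1 instead of 2 was higher without blastocyst polysome pool B or transcriptome A, 3 instead of 5 were lower without polysome pool A or transcriptome C, and 2 instead of 5 rose without morula transcriptome C and 3 without morula transcriptome A or B or blastocyst transcriptome A. Of the tight junction genes, 1 instead of 3 was lower without either blastocyst polysome pool, and 0 with a replicate block within stage.

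FXYD6, a regulator of the pump, stood at 31.7 and 31.6 CPM in blastocyst polysome pools and between 1.45 and 3.23 CPM in the transcriptomes (log2 difference 3.68 ± 0.55 SE, edgeR adjusted p = 1.08e-05). Its pools lay above the transcriptomes at the earlier stages as well. In GV oocytes they held 170 and 197 CPM against between 17.3 and 28.1 CPM. FXYD4, another, was between 25.2 and 47.3 CPM in morula transcriptomes and at 113, 174 and 156 CPM in blastocysts (2.11 ± 0.60 SE, edgeR adjusted p = 0.0123, and 0.06 without morula transcriptome A and 0.0547 without C). AQP4, a water channel, was at 0.435 and 1.40 CPM in blastocyst polysome pools and between 4.41 and 9.95 CPM in the transcriptomes (-2.77 ± 0.93 SE, edgeR adjusted p = 0.0202, with -2.18 without polysome pool A, adjusted p = 0.156, -3.84 without pool B and an adjusted p of 0.0687 without transcriptome B).

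SLC9A3, the sodium-proton exchanger that SLC9A3R1 binds, had 1, 0 and 1 counts in morula transcriptomes and 9, 44 and 39 in blastocysts, at 2.65, 9.12 and 7.81 CPM (edgeR adjusted p = 7.58e-04). SLC9A9, an exchanger of endosomes, fell from between 20.0 and 30.2 CPM to 1.47, 2.28 and 4.40 CPM over the same step (-3.09 ± 0.78 SE, edgeR adjusted p = 0.00485). SLC26A6, an anion exchanger, was higher in blastocyst polysomes, at 47.3 and 94.8 CPM against between 9.01 and 14.7 CPM (2.59 ± 0.39 SE, edgeR adjusted p = 1.06e-05, and 2.00 without polysome pool B). Its pools also lay above the transcriptomes at the earlier stages, with 299 and 401 CPM against between 12.1 and 21.8 CPM in GV oocytes. Of the genes of that list called lower in blastocyst polysomes, the potassium channel gene KCNQ1 had the largest fitted difference (edgeR adjusted p = 0.0415). The call was lost in 4 of 30 fits that left out 1 library. KCNQ1 had no count in the polysome pools and 0, 2 and 1 counts in the transcriptomes, so no fold is given. In GV oocytes its pools held 73.9 and 81.5 CPM and the transcriptomes between 2.33 and 4.31 CPM.

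Among tight junction genes, CLDN3, a claudin of the seal, was at 146 and 109 CPM in blastocyst polysome pools and between 2.69 and 6.47 CPM in the transcriptomes (log2 difference 4.89 ± 1.11 SE, edgeR adjusted p = 0.00117). Its pools lay above the transcriptomes at the earlier stages too, with 83 and 20.7 CPM against up to 1.83 CPM in 8-cell embryos. TJP1, the scaffold ZO-1, was at 13.3 and 7.28 CPM in the pools and between 46.7 and 68.9 CPM in the transcriptomes (-2.55 ± 0.92 SE, edgeR adjusted p = 0.0298, lost in 4 of 30 fits that left out 1 library, adjusted p up to 0.179). TJP3, a related scaffold, rose in transcriptomes from between 3.92 and 7.87 CPM in morulae to 77.3, 91.0 and 86.3 CPM in blastocysts (3.79 ± 0.90 SE, edgeR adjusted p = 0.00317).

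Levels of the 6 genes were also set beside all tested genes over the 30 pools and transcriptomes, as Pearson's r of log2(CPM + 1). The libraries share stages and kinds, so r is a description. CDKL2 and HSPA4L (r = 0.98 each) and KLHDC1 (0.97) were most like CFTR. ZAP70 (0.98), TBC1D13 (0.97) and EEF2 (0.96) were most like AQP3, and CTSL, TPM4 and RPL36A (0.97 each) most like ATP1B3. SBSPON (0.96), CRABP1 (0.94) and NHLRC3 (0.92) were most like AQP11. DUSP8 and PRKCZ (0.95 each) and ATP6V1B1 (0.92) were most like SLC9A3R1, and CDC27, GPX8 and CLOCK (0.91 each) most like ATP1B1. Among the 6 genes themselves the pair most alike was AQP3 and SLC9A3R1 (r = 0.81), and the most opposed was AQP3 and CFTR (r = -0.93), while the beta subunits ATP1B1 and ATP1B3 had r = -0.32.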

How the data were processed

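The authors prepared libraries with a Smart-seq v4 kit, estimated reads per gene with Salmon (version not given in the sources used here) and deposited 1 table of expected counts, not normalized, for 16706 gene symbols and 138 libraries. Of the values, 11.7% are not whole. The paper's text names the Ensembl annotation ARS-UCD1.2 and the submitters' processing notes name UMD3.1, so no coordinates are given. Reads cannot be assigned beyond these gene symbols, and without gene lengths levels were not compared between genes. The amplification before sequencing means that levels are shares of each library.

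Groups and replicate letters were taken from the labels. F8 to F10 of each gradient were summed, and counts were rounded to whole numbers. 1 edgeR quasi-likelihood model (robust, TMM, filterByExpr, group means) was fitted to 30 libraries (12 polysome pools, 18 transcriptomes) and 14612 genes. Tests were two-sided with Benjamini-Hochberg adjustment. Contrasts were polysome pools against transcriptomes at each stage (adjusted p below 0.05), changes between consecutive stages (also a fold change above 2), the difference between these changes, and neighbours in the order of levels. The SE is the log2 difference divided by the square root of the F statistic. Trends were Spearman's rho over 16 libraries of F3 to F10 on log2(CPM + 1), with 100000 permutations, for genes with a mean of at least 1 CPM. Levels of 0 were given a floor of 3 counts of that library's size after TMM scaling. Scripts were tested on simulated data. Python 3.11.15 with numpy 2.4.6, pandas 2.3.3, scipy 1.17.1 and matplotlib 3.10.9 were used for tables and trends, and DESeq2 1.42.0, limma 3.58.1 and edgeR 4.0.16 for models in R 4.3.3.

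The 6 genes and the lists of other genes were chosen with earlier results of these data known. Of each list, the gene with the largest called fold change in each direction is named for blastocyst polysomes against transcriptome and for the transcriptome change from morula to blastocyst, and the 3 genes with the highest r are named per member. 1 further gene is not reported here. Alternatives were the likelihood ratio test, DESeq2, no TMM or RLE factors, no filter, a block on the replicate letter, other poolings of fractions, other trend settings and leaving out each library. Letters are shared by gradients and transcriptomes, but deviations of same-letter libraries correlated between -0.06 and 0.01 over 12816 genes, so the letters were not taken as pairs.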

Additional observations from a re-analysis of the deposited data

Results flagged for a closer look

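The change between consecutive stages differed between polysome pools and transcriptomes, by edgeR's quasi-likelihood test of that difference, in 6 cases among the 30 tested for the 6 genes. Values are the polysome log2 change minus the transcriptome log2 change, and the changes themselves stand in the report. For SLC9A3R1 the difference was 3.28 from GV to MII (adjusted p = 0.00303), -2.70 from MII to 2-cell (adjusted p = 0.0438) and -2.79 from morula to blastocyst (adjusted p = 0.00932). Of 30 fits that left out 1 library, these calls were lost in 0, 20 and 1. For AQP3 it was -2.08 from morula to blastocyst (adjusted p = 0.0303, lost in 7 of 30 such fits). For ATP1B3 it was -1.52 from 2-cell to 8-cell (adjusted p = 0.0265, lost in 5 of 30 such fits). For CFTR the fitted difference from 8-cell to morula was -6.58 (adjusted p = 0.0146), but both morula polysome pools held no count, so its size depends on the prior count of the fit and the call was lost in 3 of 30 fits that left out 1 library (-2.71, adjusted p = 0.177, without 8-cell polysome pool A, and adjusted p = 0.051 and 0.0579 without morula pool A or B). The search for single outlying values by Dixon's test covers groups of 4 or more samples and was not made in these groups of 2 and 3.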

How the results depend on the processing

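Of the 62 member results called (polysomes against transcriptome, changes, their differences and trends), 36 were kept in every fit that left out 1 library or gradient, 42 under every other alternative and 33 under all. All calls of AQP3 and SLC9A3R1 for polysomes against transcriptome were kept under all of them. With the replicate block within stage, 7 tests of polysomes against transcriptome were called lower in place of 14. The calls lost were those of ATP1B1 in GV (-3.06), MII (-3.56), 2-cell (-3.30) and 8-cell (-5.57), of CFTR in GV (-2.61) and 2-cell (-2.98) and of ATP1B3 in blastocysts (-0.79), with adjusted p between 0.082 and 0.229. The letters were not found to pair the libraries (see the correlations given with the processing), so this block is 1 more setting and not a paired test, and an additive replicate block turned the ATP1B1 difference from 2-cell to 8-cell from 0.08 to -0.27. DESeq2 and RLE factors gave -0.02 for it, and F6 to F10 summed gave -0.10. With F9 and F10 summed, 0 differences between changes were called lower in place of 5, the ATP1B1 polysome change from 2-cell to 8-cell was 0.70 in place of -0.05, and the CFTR difference of that step was -3.03 in place of 1.38. With F6 to F10 summed, 3 such differences were called higher in place of 1, and ATP1B3 against the 2-cell transcriptome was 0.04 in place of -0.21. With F3 to F5 summed, a pooling added after the data were seen, signs turned for AQP11 in GV oocytes (-0.65) and 8-cell embryos (-0.66), ATP1B3 in MII oocytes (0.46) and 2-cell embryos (1.15), and SLC9A3R1 (0.21) and AQP3 (-1.12) in blastocysts. With F1 to F10 summed, added in the same way, they turned for ATP1B3 in 2-cell embryos (0.60) and SLC9A3R1 in blastocysts (0.08). The cause was not tested.

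Leaving out 1 library or gradient at a time, the calls for lower transcriptome levels ran from 4 to 8, for lower polysome levels from 3 to 5, for differences from 1 to 3 higher and from 2 to 6 lower, and for trends from 0 to 1 rising and from 1 to 2 falling (in place of 2 and 4). Signs turned in the ranges of AQP11 polysomes against transcriptome (-0.45 to 1.11 in GV oocytes, -0.99 to 1.98 in morulae, while -1.58 to 0.00 in 2-cell embryos ended at no difference), of ATP1B3 in 2-cell embryos (-0.76 to 0.17), of the polysome changes of ATP1B1 from 2-cell to 8-cell (-10.33 to 0.95) and from 8-cell to morula (-1.55 to 9.73) and of AQP11 from morula to blastocyst (-0.41 to 2.57), and of the differences from 2-cell to 8-cell of ATP1B1 (-10.20 to 1.08) and CFTR (-2.47 to 2.35). The widest of these rest on 8-cell polysome pool A, which held no ATP1B1. Without TMM factors the median over all genes moved by -0.34 for polysomes against transcriptome in morulae and blastocysts and by 0.46 for transcriptomes from MII to 2-cell, and the calls of ATP1B3 (MII to 2-cell, -0.74) and AQP3 (morula to blastocyst, 1.03) in transcriptomes were lost. Counts of CFTR ran from 0 to 22 in morulae and blastocysts and those of AQP11 from 7 to 52 in MII oocytes and 2-cell embryos, and the smallest detectable difference was not tested.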
